A study of Mus musculus with 4 samples.

Results

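The genes described here encode the SWI/SNF, ISWI and CHD chromatin remodelling enzymes, the subunits of SWI/SNF complexes and the ARID family of DNA-binding proteins. They were chosen by name only: 41 of the 32681 gene symbols in the table matched a pattern covering the Smarc, Chd, Arid, Dpf and Bcl7 names with Pbrm1, Brd7 and Brd9. RNA was sequenced from 4 primary neuron cultures made from the neocortex of wild-type CD-1 mouse embryos at embryonic day 13. In 2 cultures a control short hairpin RNA (shRNA) was transfected, and in the other 2 an shRNA targeting DcpS, the enzyme that breaks down the cap remnants freed when mRNAs are degraded. The titles name 1 hairpin design against DcpS. Neither the share of cells transfected nor the time of harvest is given in the sources used here, and nothing in the labels says that cultures of a group came from separate litters, so the p-values here gauge only library-to-library spread, which may be technical.

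The libraries held 17754768 to 21793685 reads, and the values below are normalised read counts, that is reads divided by a size factor per library. Dcps itself read 499.8 and 507 in the control libraries against 114 and 119.6 with DcpS shRNA, 23.3% of the control mean. The 8 neuronal markers examined (Tubb3, Map2, Rbfox3, Dcx, Neurod6, Neurod2, Snap25 and Stmn2) all had reads, so markers of the labelled cell type were present. They summed to 96746 to 98651 in the controls and to 93084 to 93887 with DcpS shRNA, with 1 of 8 called higher and 1 lower. The cultures also held other cells: the summed fibroblast markers (Col1a1, Col1a2, Col3a1, Dcn, Lum and Postn) lay at 11103 to 12200 in the controls and at 6538 to 6742 with DcpS shRNA, and 6 of 6 passed the test as lower. Of 7 endothelial and mural markers 3 were lower, with sums of 708 to 776 against 412 to 442, and of 6 astrocyte markers 3 were lower, with sums of 2107 to 2366 against 1627 to 1716. Of 6 oligodendrocyte-lineage markers 1 was higher and 1 lower, with sums of 510.2 to 559 against 493 to 513, which overlapped. The DcpS shRNA libraries differed from each other more than the controls did (chi-square divided by its degrees of freedom, 4.03 against 2.15), and DcpS shRNA 1 read higher than DcpS shRNA 2 for genes with long coding sequences, a pattern described below.

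Chromatin remodellers use ATP to slide, eject or exchange nucleosomes, which sets how accessible DNA is to transcription factors. SWI/SNF, called BAF in mammals, is built around 1 of the alternative ATPases Smarca4 (BRG1) and Smarca2 (BRM) with further subunits. ARID1, PBRM1 or BRD9 proteins give it a canonical, a PBAF or a non-canonical identity. These forms differ in some of the other subunits. As cortical progenitors become neurons, the complex exchanges subunits: Phf10 and Dpf2 give way to Dpf1 and Dpf3, Actl6a to Actl6b, and Ss18 to Ss18l1. Chd3, Chd4 and Chd5 are alternative ATPases of the NuRD complex, which couples remodelling to histone deacetylation and serves successive steps of cortical development. Mutations in many of these genes, among them ARID1B, SMARCA2, SMARCA4, CHD2, CHD7 and CHD8, cause human neurodevelopmental disorders.

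Sequences are shown for Dcps, for 1 member that passed the test and for 2 that did not. The words ACGTGCA and CACGTGC, searched on the transcript strand and overlapping each other by 6 of their 7 bases, were taken from an earlier analysis of these same libraries and are no independent evidence. They are shown because the 3′ UTR of Arid5b holds the joined word that Dcps holds. In capitals are the words, with up to 10 flanking bases of the GENCODE M21 transcript in lower case, 5′ to 3′.
Dcps, chr9:35124746-35124773, minus strand, GRCm38: ctatcacctgCACGTGCAtttcacagct
Arid5b, chr10:68094861-68094888, minus strand, GRCm38: ctccgtgtagCACGTGCAtccttagaat
Arid2, chr15:96403154-96403181, plus strand, GRCm38: acgcattcgtCACGTGCAagctcagctt
Chd2, chr7:73428718-73428744, minus strand, GRCm38: tgtgggacatACGTGCAgatagggggc
The first base of the word lies at base 127 of the 478-base Dcps 3′ UTR, at 1626 of 3984 in Arid5b, at 1070 of 2898 in Arid2 and at 933 of 3029 in Chd2. Shorter annotated 3′ UTRs of Arid5b (50 bases) and Arid2 (194 bases) hold neither word. Which of these forms the cultures used was not tested. Either word was present in 3 of 41 members (7.32%), against 7.97% of 13771 tested genes with an annotated 3′ UTR and 33.2% of the 645 lower genes among them. The joined word CACGTGCA was in the 3′ UTR of 291 scanned genes (2.11%). Of these, 66 were lower (22.7%), where 645 of all 13771 scanned genes were lower. It was in 10.2% of the lower genes scanned and in 0.545% of the higher ones. The hairpin's sequence is not given in the sources used here, and the part of these words in any result was not tested.

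With DcpS shRNA the transcripts of both alternative BAF ATPases, the NuRD ATPase Chd3 and the ARID gene Arid5b fell. Those of Bcl7b and Bcl7c, small BAF subunits, rose. These 6 were the called members among the 40 that passed the filter on low values, 4 lower and 2 higher (limma, Benjamini-Hochberg adjusted p under 0.05 over 18110 genes). That is 15% of members, against 5.79% of all genes tested, and these shares are not matched for depth. The median of the mean reads per library was 2549 over the 40 members. Over the 13784 tested genes with an annotated coding sequence it was 566.5. The part of depth in the difference between the shares was not tested. In the lower direction 3.65% of all genes were called, and in the higher direction 2.14%. The median log2 fold change was 0.02 over the 40 members and 0.00 over all genes. At an unadjusted p under 0.05 there were 12 members, which added Smarcd1, Smarce1, Smarcc1, Smarcb1, Smarcd2 and Arid3b, and 18.7% of all genes tested were under the same p. edgeR's quasi-likelihood test called the same number, 6, and DESeq2 called 4, all of them lower.

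**Figure D1:**
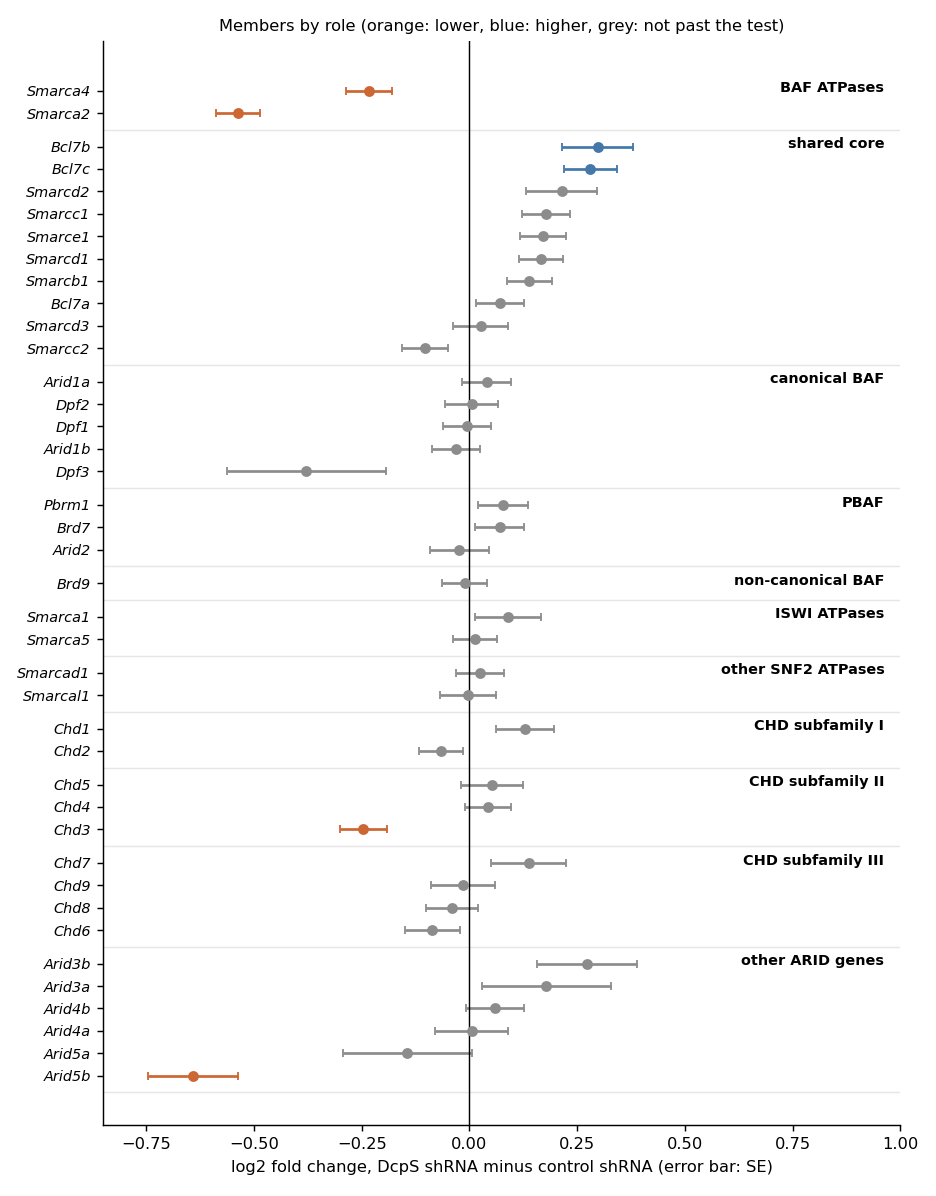
Log2 fold change of the 40 tested members, DcpS shRNA minus control shRNA, grouped by role, with error bars showing the SE from limma. Orange points passed the test as lower, blue points as higher and grey points did not pass. Both BAF ATPases lie left of zero, and 9 of the 10 genes grouped as shared core lie to the right, 2 of them past the test. The share of all tested genes on each side of zero was not counted.

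Smarca2 (chromosome 19, 26605050 to 26778322, plus strand, GRCm38), the BRM ATPase, read 5031 and 5238 in the control libraries against 3556 and 3522 with DcpS shRNA. The groups lay far apart, and the DcpS shRNA libraries differed by less than the controls did. The mean fell by 31.1%, from 5135 ± 147 to 3539 ± 23.9 (SD, n = 2 per group), with a log2 fold change of −0.54 (SE 0.05; limma, Benjamini-Hochberg adjusted p 6.82e-06). Smarca2 stayed past the threshold in each of 18 other settings, with log2 fold changes of −0.57 to −0.49.

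Smarca4 (chromosome 9, 21616169 to 21704230, plus strand), the BRG1 ATPase, read 11414 and 10754 in the control libraries against 9715 and 9148 with DcpS shRNA. The groups did not overlap, and both controls lay above both DcpS shRNA libraries. The mean was 14.9% lower, at 9432 ± 401 against 11084 ± 467 (SD, n = 2 per group), a log2 fold change of −0.23 (SE 0.05; limma, Benjamini-Hochberg adjusted p 0.0147). Leaving out control 1 ended the call (adjusted p 0.302 in limma, by Benjamini-Hochberg), as did leaving out control 2 (0.0699), within a range of 5.20e-05 to 0.302 over all settings.

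Smarca4 stood above Smarca2 in each library, before and after division by length. The length used is all annotated exon bases of a gene, 14269 for Smarca2 and 6475 for Smarca4. Their longest coding sequences are 4803 and 4851 bases. The size of the gap per kilobase therefore depends on the annotation, while its change between groups does not. The ratio of Smarca2 to Smarca4 per kilobase was 0.200 and 0.221 in the control libraries against 0.166 and 0.175 with DcpS shRNA. It was lower in both DcpS shRNA libraries, by 0.30 on the log2 scale. Such a ratio within a library does not depend on how libraries are scaled. An exact two-sided permutation test of 2 libraries against 2 cannot give a p below 0.33, which is the value here, or 0.593 after Benjamini-Hochberg adjustment over the 16 ratios examined.

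**Figure D2:**
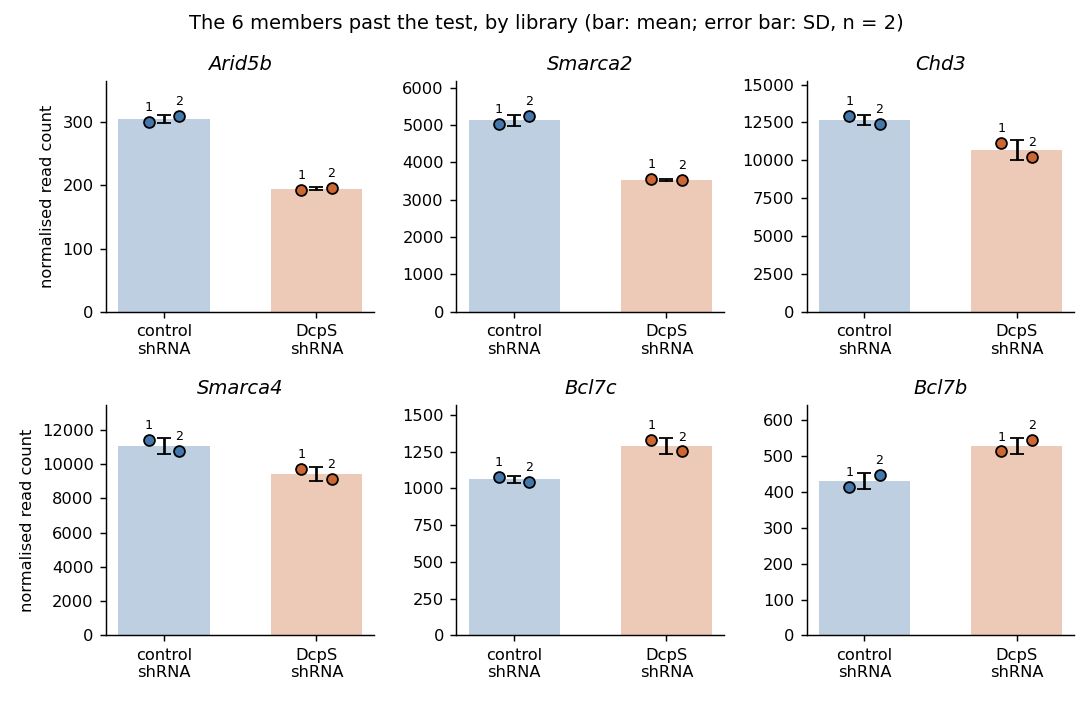
Normalised read count of the 6 members past the test in each library. Points are libraries numbered 1 and 2 within their group, bars the group mean and error bars the SD (n = 2). Arid5b and Smarca2 show the widest gaps between groups for their spread, and in each panel the groups do not overlap.

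Bcl7b (chromosome 5, 135168283 to 135181855, plus strand) read 414 and 447 in the control libraries against 513 and 545 with DcpS shRNA. Its mean rose by 22.9%, from 431 ± 23.2 to 529 ± 22.6 (SD, n = 2 per group), a log2 fold change of 0.30 (SE 0.08; limma, Benjamini-Hochberg adjusted p 0.0449). Bcl7c (chromosome 7, 127661456 to 127708933, minus strand) read 1079 and 1044 in the control libraries against 1329 and 1252 with DcpS shRNA. The mean rose by 21.5%, from 1062 ± 25.0 to 1290.4 ± 54.9 (SD, n = 2 per group), a log2 fold change of 0.28 (SE 0.06; limma, Benjamini-Hochberg adjusted p 0.0108). In both genes all control libraries lay below all DcpS shRNA libraries, whereas the paralogue Bcl7a read 4714 and 4303 against 4833 and 4629 and its groups overlapped. DESeq2 called neither gene (adjusted p 0.295 for Bcl7b and 0.0689 for Bcl7c). In limma, Bcl7b was also not called when control 1 (adjusted p 0.275), control 2 (0.0588) or DcpS shRNA 2 (0.161) was left out, and Bcl7c when control 2 was (0.0889).

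The group named shared core here holds 10 genes of the set, not all of them part of each form of the complex. Outside the Bcl7b and Bcl7c pair none passed the main test. Smarcc1 (BAF155), a scaffold on which the complex is built, read 5780 and 5940 in the control libraries against 6969 and 6299 with DcpS shRNA, and its adjusted p was 0.0787 (limma, Benjamini-Hochberg). Its paralogue Smarcc2 (BAF170) went the other way in level, at 9186 and 8696 against 8585 and 8066. The ratio of Smarcc2 to Smarcc1 per kilobase was 2.24 and 2.07 in the control libraries against 1.74 and 1.81 with DcpS shRNA, a log2 difference of −0.28 with no overlap between groups (exact permutation p 0.33, the smallest possible).

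Smarcd1 (BAF60a), which links the complex to transcription factors, read 3273 and 3261 in the control libraries against 3681 and 3651 with DcpS shRNA, 12.2% higher in the mean. The libraries within each group were nearly equal, yet the adjusted p was 0.0682 (limma, Benjamini-Hochberg). Smarce1 (BAF57), an HMG-box subunit, lay at 4654 and 4335 against 4969 and 5148 (limma, Benjamini-Hochberg adjusted p 0.0769). Smarcb1 (SNF5), which contacts the nucleosome, lay at 2536 and 2526 against 2731 and 2844, and Smarcd2 at 472 and 518 against 551 and 597, while the groups of Smarcd3, 979 and 933 against 1000.3 and 947, overlapped. Over the 10 core genes the median log2 fold change was 0.17, against 0.00 over all genes tested. Most of the 10 have coding sequences under 2000 bases. All tested genes of up to 1000 bases had a median of 0.03 and those of 1000 to 2000 bases 0.01, while each longer class had a negative median. The part of length in the core's shift was not tested. In 8 of the 10 the groups did not overlap, 7 higher and 1 lower, where 48.4% of all genes tested had groups that do not overlap in either direction. Among all 40 tested members the share without overlap was 40.0%, 8 higher and 8 lower, which is near that background. A processed copy, Smarce1-ps1, took 989 reads over the 4 libraries, and reads that fit both may be split between them.

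Subunits that give a complex its identity did not pass the test. Arid1a, a DNA-binding subunit of canonical BAF, read 5362 and 5454 in the control libraries against 5867 and 5268 with DcpS shRNA. Arid1b, its alternative, read 2487 and 2320 against 2386 and 2313. For both genes the groups overlapped, with log2 fold changes of 0.04 (SE 0.06) and −0.03 (SE 0.06). In PBAF, Arid2 read 3705 and 3953 against 4086 and 3470, so that the member sharing the joined word CACGTGCA with Arid5b and Dcps overlapped between groups, with a log2 fold change of −0.02 (SE 0.07). Pbrm1 (4294 and 4454 against 4864 and 4378), the polybromo subunit, and Brd7 (1764 and 1849 against 1832 and 1962) also overlapped, as did Brd9 of non-canonical BAF (2582 and 2611 against 2537 and 2616).

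The Dpf genes encode paired PHD-finger subunits that read histone tails. Dpf2, the form of progenitors and most cells, read 1857 and 1693 in the control libraries against 1722 and 1838 with DcpS shRNA. Dpf1, a neuronal form, read 1478 and 1466 against 1456 and 1476. Per kilobase the ratio of Dpf1 to Dpf2 stayed between 0.962 and 1.05 in the 4 libraries, with the groups overlapping. Dpf3, the other neuronal form, was scarce, at 76.0 and 76.9 in the control libraries against 62.7 and 54.8 with DcpS shRNA. It was lower in both DcpS shRNA libraries by 23.2% of the mean, a log2 fold change of −0.38 (SE 0.18) that did not pass (limma, Benjamini-Hochberg adjusted p 0.283).

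The exchange partners outside the name pattern were read beside them. Actl6b and Actl6a, the neuronal and progenitor actin-like subunits, had a per-kilobase ratio of 1.10 and 1.08 in the control libraries against 1.01 and 1.15 with DcpS shRNA, which overlapped. Ss18l1 to Ss18 gave 2.79 and 2.84 against 3.07 and 3.14, higher in both DcpS shRNA libraries by 0.14 on the log2 scale (exact permutation p 0.33, the smallest possible). Ss18 itself lay at 1397 and 1418 against 1275 and 1264, and Ss18l1 at 1797 and 1855 against 1803 and 1832. Neither gene passed the test (limma, Benjamini-Hochberg adjusted p 0.158 and 0.970). Phf10, the progenitor PHD-finger subunit, lay at 1400 and 1452 against 1465 and 1608, above the controls in both DcpS shRNA libraries without passing (limma, Benjamini-Hochberg adjusted p 0.381).

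**Figure D3:**
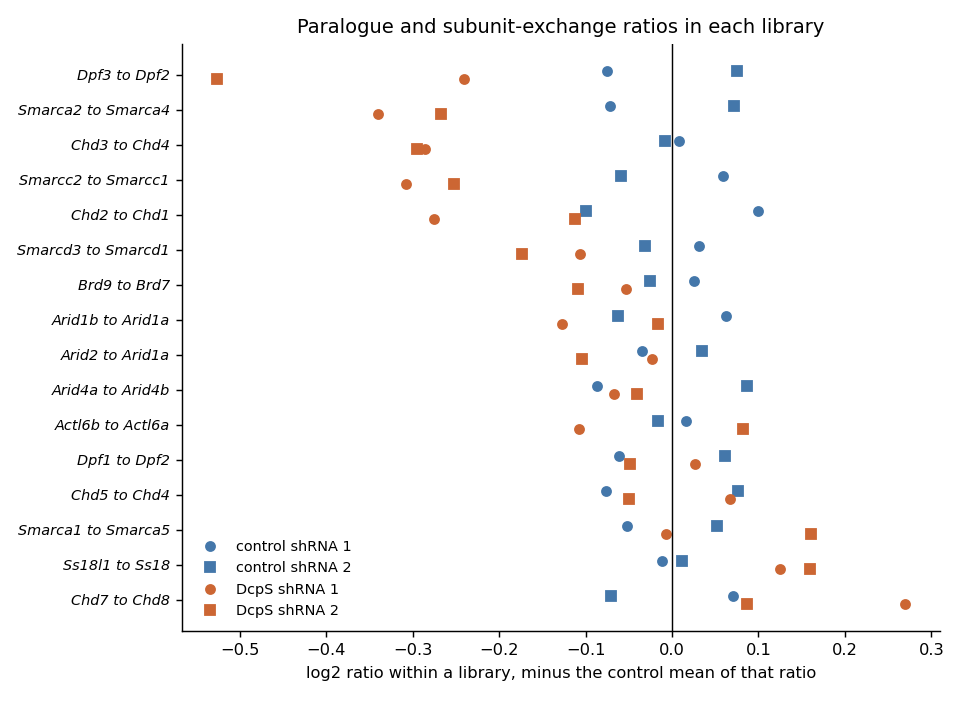
Log2 ratio of 16 pairs of paralogues or exchanged subunits within each library, with the control mean of each ratio set to zero. Circles are libraries numbered 1 and squares libraries numbered 2, blue for control shRNA and orange for DcpS shRNA. In 9 of the 16 pairs (56.2%) the groups do not overlap, among them Smarca2 to Smarca4, Smarcc2 to Smarcc1 and Chd3 to Chd4. Levels of single genes did not overlap for 48.4% of all genes tested, which is an unlike measure. No share was computed for ratios of other gene pairs. Some of the 16 pairs share a gene or hold a called member.

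Chd3 (chromosome 11, 69343273 to 69369406, minus strand) read 12913 and 12415 in the control libraries against 11152 and 10211 with DcpS shRNA. The mean fell by 15.7%, from 12664 ± 352 to 10681 ± 665 (SD, n = 2 per group), a log2 fold change of −0.25 (SE 0.05; limma, Benjamini-Hochberg adjusted p 0.0119). Leaving out either control ended the call (adjusted p 0.211 without control 1 and 0.0801 without control 2 in limma), within a range of 3.12e-06 to 0.211 over all settings. Chd4, the alternative ATPase of the same complex, read 9093 and 8847 against 9632 and 8874 and overlapped between groups. The per-kilobase ratio of Chd3 to Chd4 was 1.35 and 1.33 in the control libraries against 1.10 and 1.09 with DcpS shRNA. Libraries of a group differed in this ratio far less than the groups did, and the log2 difference was −0.29 (exact permutation p 0.33, the smallest possible). Chd5, the ATPase most restricted to neurons, read 1590 and 1719 against 1859 and 1580, and its ratio to Chd4, 0.146 and 0.163 against 0.162 and 0.149, overlapped.

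The remaining CHD genes did not pass. Chd1, which binds methylated histone H3 at active promoters, read 1612 and 1811 against 1972 and 1769. Chd2 read 3579 and 3503 against 3376 and 3390, without overlap but with a log2 fold change of only −0.07 (SE 0.05). Chd2 holds ACGTGCA in its 3′ UTR, and 18.4% of its exon bases are shared with the transcript 1810026B05Rik on the same strand. Chd7, the CHARGE syndrome gene, read 3094 and 3085 in the controls but 3799 and 3038 with DcpS shRNA, so that 1 library alone stood high. Without DcpS shRNA 2 its log2 fold change was 0.30 and passed (limma, Benjamini-Hochberg adjusted p 0.000276), and without DcpS shRNA 1 it was −0.02. Chd8, an autism-associated gene, read 3790 and 4165 against 4051 and 3680, a log2 fold change of −0.04 (SE 0.06). Chd6 (2730 and 2862 against 2820 and 2458) and Chd9 (1807 and 1797 against 1961 and 1623) overlapped between groups as well. These 2 genes also depended on the DcpS shRNA library kept. The log2 fold change was −0.19 for Chd6 and −0.15 for Chd9 without DcpS shRNA 1, and 0.013 and 0.12 without DcpS shRNA 2.

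Among ATPases of other families, Smarca5 (SNF2H), the ISWI enzyme of dividing cells, read 3953 and 3806 in the controls and 3913 in both DcpS shRNA libraries. Smarca1 (SNF2L), its neuronal counterpart, read 624 and 646 against 638 and 716. The annealing helicase Smarcal1 ran from 867 to 928 and the remodeller Smarcad1 from 2401 to 2575 over the 4 libraries. None of these 4 passed, and their log2 fold changes ran from −0.0031 (Smarcal1) to 0.09 (Smarca1).

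Arid5b (chromosome 10, 68092520 to 68278740, minus strand), an ARID protein that works with the histone demethylase Phf2, read 300.3 and 309.7 in the control libraries against 194 and 197 with DcpS shRNA. Both DcpS shRNA libraries lay far below both controls, and libraries of a group were close. Its mean fell by 36.0%, from 305 ± 6.69 to 195 ± 2.23 (SD, n = 2 per group), a log2 fold change of −0.64 (SE 0.10; limma, Benjamini-Hochberg adjusted p 0.00126). Arid5b stayed past the threshold in each of 18 other settings, with log2 fold changes of −0.66 to −0.61. It is the only called member with either word in its 3′ UTR.

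Its paralogue Arid5a read 108 and 121 against 105 and 102, without overlap and without passing. Arid3b, of the Bright family, lay at 187 and 220.5 against 249 and 242.5 (limma, Benjamini-Hochberg adjusted p 0.213), and the groups of Arid3a, 139 and 195 against 177 and 196, overlapped. Arid4a and Arid4b, partners of the Sin3 corepressor, read 744 and 868 against 869 and 749 and 2490.4 and 2576 against 2867 and 2428, each higher in DcpS shRNA 1 than in DcpS shRNA 2. Arid3c had 4.10 to 7.82 normalised reads in the 4 libraries and was the member left untested by the filter.

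In bulk RNA a lower transcript level from fewer cells of a type and from less RNA per cell cannot be told apart. Fibroblast, endothelial and astrocyte markers were lower in the same 2 libraries in which Smarca2, Smarca4, Chd3 and Arid5b were lower, and the part of these cells in the members' changes was not tested. The 7 radial glia markers summed to 19694 to 20605 in the controls and 21056 to 21735 with DcpS shRNA, with 1 of 7 higher. The 6 interneuron markers (315 to 326 against 283 to 285) and 7 microglial markers (161 to 163 against 134 to 162) had no called gene by limma.

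Per length, the order of levels put the ATPase Smarca4, the scaffold subunit Smarcc2 and the ATPase Chd3 at the top. The length is all annotated exon bases of a gene, which can far exceed its coding sequence, as with 7222 against 723 bases in Bcl7c. The order therefore depends on the annotation. Smarca4 had 1712 ± 72.1 normalised reads per kilobase of exons in the controls, Smarcc2 1610.5 ± 62.4 and Chd3 1499.9 ± 41.7 (SD, n = 2). Smarca4 and Smarcc2 differed by little more than their SDs, and Smarcc2 and Chd3 by more. Chd4 followed well below, at 1119 ± 21.7. The core subunits Smarcd1, Smarcc1 and Smarce1 came next, from 812 down to 676. With DcpS shRNA the leading order changed, Smarcc2 standing at 1499.6 and Smarca4 at 1457. Smarca2 stood at 360 ± 10.3 in the controls and 248 with DcpS shRNA, and Arid5b at 30.3 ± 0.665 and 19.4. Arid3a, Arid3b, Dpf3, Arid5a and Arid3c were the other genes under 50 per kilobase.

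**Figure D4:**
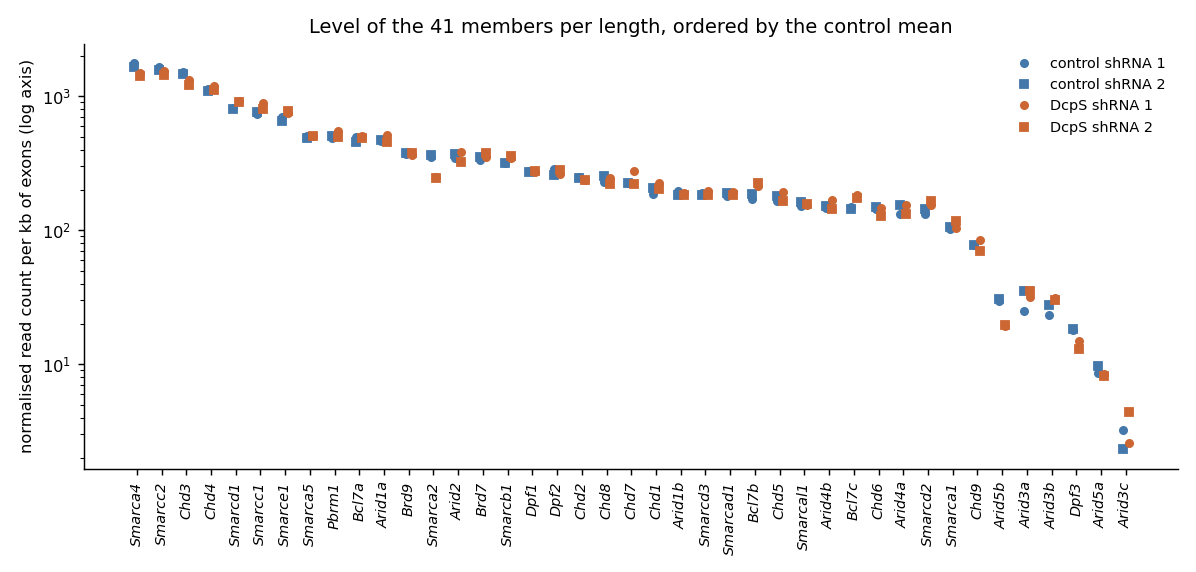
Normalised read count per kilobase of annotated exons for the 41 members in each library, on a log axis and ordered by the control mean. Blue points are control shRNA and orange points DcpS shRNA libraries, with circles for libraries numbered 1 and squares for libraries numbered 2. Smarca2 and Arid5b stand out as orange below blue.

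Members have long coding sequences, with a median of 3249 bases against 1434 over the 13784 tested genes with an annotated coding sequence. This length moved with a difference between the 2 DcpS shRNA libraries. All 7 members with a coding sequence over 6000 bases read higher in DcpS shRNA 1 than in DcpS shRNA 2, by a median of 0.16 on the log2 scale, and over all 396 tested genes of that length the median was 0.17. In the 12 members of 1000 to 2000 bases the median was −0.05, and over all genes of that length −0.01. Across the 40 members Spearman's rho between coding length and this difference was 0.62, against −0.12 for the difference between the controls. Across all 13784 genes the values were 0.29 and −0.08; genes share libraries and depth and are not independent replicates.

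Coding length also moved with the direction of the calls. The 4 lower members have coding sequences of 3564 (Arid5b), 4803 (Smarca2), 4851 (Smarca4) and 6165 bases (Chd3), and the 2 higher members 606 (Bcl7b) and 723 bases (Bcl7c). Spearman's rho between coding length and log2 fold change was −0.40 over the 40 members and −0.15 over all genes. With the trend on coding length removed from each library, a setting chosen after seeing the data, the same 6 members passed, with log2 fold changes of −0.49 for Smarca2, −0.19 for Smarca4, −0.19 for Chd3, −0.61 for Arid5b, 0.26 for Bcl7b and 0.25 for Bcl7c. A further 6 passed as higher, Smarcc1, Smarcd1, Smarce1, Chd1, Chd7 and Pbrm1, so that the count was 8 higher and 4 lower. Only the 13784 genes with an annotated coding sequence entered that fit, and 1521 of them were called (11.0%), 6.29% lower and 4.74% higher. Over the same 13784 genes with no trend removed, a setting also chosen after seeing the data, 1156 were called (8.39%), 5.15% lower and 3.24% higher. That setting called 7 members, the same 6 and Smarcd1 as higher.

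**Figure D5:**
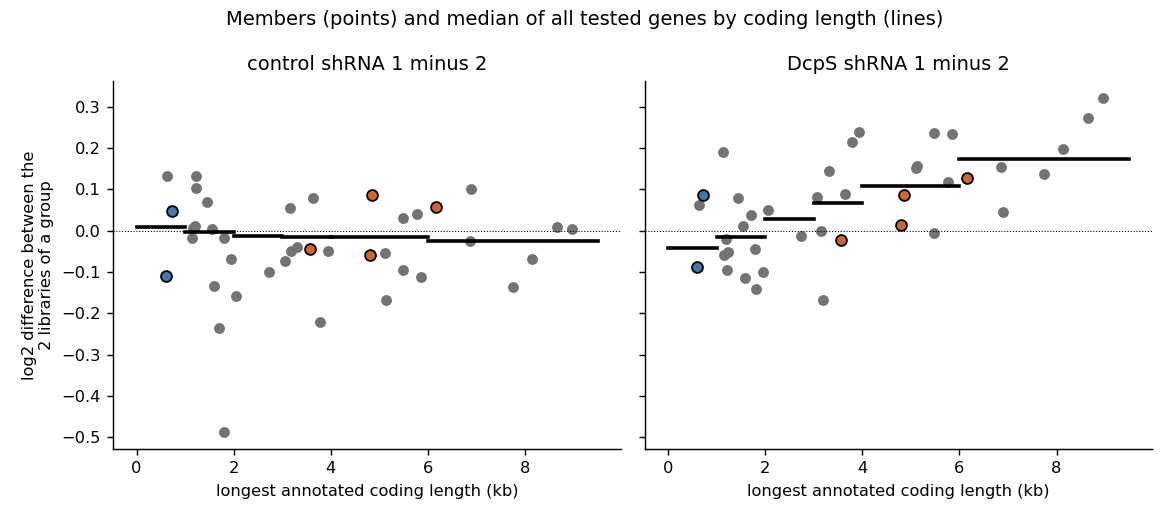
Log2 difference between the 2 libraries of a group against the longest annotated coding length in kilobases, for control shRNA (left) and DcpS shRNA (right). Points are the 40 tested members, orange where called lower, blue where called higher and grey otherwise, and black lines the median over all tested genes in each length class. On the right the members climb with length, from near zero to 0.32 for Chd7, and on the left they do not.

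Related genes that the name pattern leaves out were counted for comparison. They were 10 further BAF genes, 13 of NuRD and the Chd4 complex with Adnp, 9 ISWI partners, 15 of INO80, SRCAP and other SNF2-family remodellers, and 5 other ARID-domain genes, 52 in all. limma called 0 of 52, where it called 5.79% of all genes tested, and edgeR and DESeq2 also called 0 of 52. An unadjusted p under 0.05 was found for 12, and for 18.7% of all genes tested. Their log2 fold changes ran from −0.32 to 0.32 with a median of −0.02. The smallest adjusted p was 0.0565, that of the methyl-DNA binding NuRD subunit Mbd2, which read 305 and 321 in the control libraries against 374 and 407 with DcpS shRNA. The count of 0 did not hold in each setting. With the library number as a block, limma called 4 of the 52, 9 of the 40 tested members and 1626 of 18110 genes. Without DcpS shRNA 1, a fit that leaves 1 library in that group, some of the 52 were called, most of them lower. Their called share there was above that of all genes tested and near that of the members. That none of the 52 passed the main test and 6 members did is a description of 2 lists, and the difference between them was not tested.

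Of the 6 called members, Smarca4, Bcl7c and Smarca2 share exon bases with another annotated gene, 1.53%, 1.05% and 0.280% of their own. Among the others, Smarcd3 shares 48.2% with Chpf2 on the opposite strand, and whether strand was used in counting is not given in the sources used here.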

How the data were processed

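The deposited table gives 1 value per gene and library. Per the submitters' processing notes HISAT2 2.2.0, SAMtools 1.3.1, Picard, featureCounts and DESeq2 were used with GRCm38, with no settings recorded there. The deposited values are a signal, read counts scaled by the authors: dividing each column by its smallest positive value gave whole reads for 100% of values (tolerance 0.001), and the implied factors equal median-of-ratios size factors. That scaling cannot show a shift of all transcripts together. edgeR called 1077 genes and DESeq2 448 on the recovered reads.

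Genes passing edgeR 4.0.16 filterByExpr (minimum count 10) were tested with limma 3.58.1 on log2(value + 1), with intensity trend and robust empirical Bayes, two-sided, Benjamini-Hochberg adjusted; fold changes are on that scale and understate low genes. DESeq2 1.42.0 was an alternative. A count of 0 allows 3 reads, up to 0.138 to 0.169 CPM, counting error only. The script was tested on simulated data. Every member is named, and all called members are given in full. Members, lists and tests were chosen with earlier results of these data known. Lengths, UTRs and coordinates are from GENCODE M21, which held all 41 members.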

Additional observations from a re-analysis of the deposited data

How the results depend on the processing

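Besides the reported fit, 18 settings were run. The pseudocounts 0.5 and 5, a floor of 1 CPM, TMM and library-total scaling, edgeR, limma-voom and a non-robust fit each called 6 members. DESeq2 called 4 members (0 higher) and 448 genes in all (137 higher, 311 lower). No filter on low values called 8 members (4 higher), 1160 of 32681 genes and 1 partner gene (0 higher, 1 lower). Testing only the 13784 genes with a coding length, added after seeing the data, called 7 members (3 higher), 1156 genes and 1 partner (1 higher); removing the coding-length trend over those genes, also added, called 12 members (8 higher), 1521 genes (654 higher) and 2 partners (1 higher, 1 lower). Same-numbered libraries deviated together with a correlation of 0.0429, so the numbers were not shown to pair the cultures. With the number as a replicate block, limma called 9 members (5 higher), 1626 genes (646 higher, 980 lower) and 4 partners (1 higher, 3 lower), and edgeR 6 members, 1385 genes and 3 partners (1 higher, 2 lower). Leaving out 1 library at a time gave 2 to 9 members (0 to 5 higher, 2 to 6 lower), 594 to 1439 genes (225 to 490 higher, 369 to 949 lower) and 0 to 11 partners (0 to 1 higher, 0 to 10 lower). Counts were lowest without a control, at 3 members without control 1 and 2 without control 2, and 9 without either DcpS shRNA library; the lone library left in a group was assumed to vary like the others. Of 720 values of single members, 655 kept direction and side of the threshold, 10 lost the call, 19 gained one and 36 changed sign, all in members not called. With the length trend removed, the log2 fold change was 0.037 for Arid1b, 0.031 for Arid2, 0.035 for Chd8, 0.068 for Chd9, −0.0037 for Dpf2 and 0.018 for Smarcal1. Dpf2 also stood at −0.0025 in edgeR, −0.0020 in limma-voom and −0.0021 with the edgeR replicate block. Leaving out 1 library, the log2 fold change ran from −0.038 to 0.12 for Arid1a, −0.082 to 0.018 for Arid1b, −0.14 to 0.094 for Arid2, −0.066 to 0.42 for Arid3a, −0.11 to 0.12 for Arid4a, −0.061 to 0.18 for Arid4b, −0.033 to 0.011 for Brd9, −0.015 to 0.10 for Chd4, −0.065 to 0.17 for Chd5, −0.19 to 0.013 for Chd6, −0.024 to 0.30 for Chd7, −0.11 to 0.028 for Chd8, −0.15 to 0.12 for Chd9, −0.015 to 0.0041 for Dpf1, −0.062 to 0.071 for Dpf2, −0.014 to 0.040 for Smarca5, −0.017 to 0.065 for Smarcad1, −0.053 to 0.046 for Smarcal1 and −0.014 to 0.066 for Smarcd3. The cause of these shifts was not tested.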
